A study of Saccharomyces cerevisiae with 12 samples.

Results

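The genes described here encode the nuclear part of the mitochondrial respiratory chain and of the ATP synthase in budding yeast, 42 genes of the 7110 features in the count table. They were chosen by name, as a fixed list of systematic names for the ATP, COX, QCR, CYC, SDH and NADH dehydrogenase genes, a rule that uses no measured value, although the list was drawn up with earlier results of these data known. By complex they are 15 ATP synthase genes, 9 genes each for complex IV and complex III, 4 for complex II, 3 NADH dehydrogenases and 2 cytochrome c genes. RNA came from 12 libraries in 4 groups of 3, namely *ups1*Δ cells treated with tunicamycin, untreated *ups1*Δ cells, tunicamycin-treated wild-type cells and untreated wild-type cells. All cells were of the S288c strain and were grown to log phase in synthetic glucose medium, and tunicamycin was given at 1 μg/ml for 3 h. Ups1 is the protein that carries phosphatidic acid across the mitochondrial intermembrane space for cardiolipin synthesis, and tunicamycin blocks N-glycosylation and so burdens the endoplasmic reticulum (ER). The labels do not say whether the 3 libraries of a group came from separate cultures, so the tests measure the spread between these libraries.

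In respiration, electrons from NADH and succinate pass through ubiquinone to complex III, cytochrome c and complex IV, where oxygen is reduced, and the proton gradient this builds drives the ATP synthase. Budding yeast has no proton-pumping complex I and uses single-protein NADH dehydrogenases instead, one facing the matrix and others facing the intermembrane space. Complexes III and IV and the ATP synthase are mosaics of nuclear and mitochondrial gene products, with many assembly factors that are not part of the finished enzyme. In glucose, yeast represses much of this machinery, and the Hap2, Hap3, Hap4 and Hap5 proteins, which bind CCAAT boxes, are the known activators of many of its genes, with *HAP4* as the glucose-regulated member. Complex IV and cytochrome c each exist in alternative forms, with *COX5A* and *CYC1* as the aerobic genes and *COX5B* and *CYC7* as those favoured at low oxygen.

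The libraries held 4650828 to 7101983 estimated counts, and the 42 genes together took 0.391% to 0.735% of them. A count of 3, taken as the limit of detection, corresponded to 0.417 to 0.696 CPM across libraries, where CPM is counts per 1000000 after scaling with TMM factors, and this limit covers counting error only. *UPS1* itself had 0 to 2 counts in the *ups1*Δ libraries and 185 to 427 in the wild-type libraries. The genotypes also differed in mating type, since the 7 a-specific genes examined summed to 201 to 330 counts in *ups1*Δ libraries, against 8434 to 23210 in wild-type libraries, and *LYS2* and *MET17* had 0 counts in wild-type libraries only. The deletion, the mating type and these markers cannot be told apart in any comparison of genotypes. Replicate 3 of untreated *ups1*Δ, with more *HAP4* and *SDH* RNA, and replicate 2 of tunicamycin-treated wild type, with less a-specific RNA, stood apart from their groups. Of the 7 mitochondrially encoded genes examined, none had more than 2 counts in any library, so the mitochondrial subunits of complexes III and IV and the ATP synthase were not assessed. In bulk RNA a change in every cell and a change in the share of cells that carry the transcript cannot be told apart.

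Sequence upstream of the genes was searched on both strands from 600 to 151 bases before each start codon in the R64 reference, the sacCer3 genome. The letters CCAAT occurred in 37 of the 42 windows (88.1%) and in 61.3% of the 5999 windows of all protein-coding genes. The longer form ACCAATNA, which contains CCAAT, occurred in 15 windows (35.7%), against 7.95% of all windows. Holders of the longer form were found in 6 of 15 ATP synthase genes, 4 of 9 complex IV genes, 3 of 9 complex III genes, 1 of 4 complex II genes and 1 of 3 NADH dehydrogenase genes. The letters ATTGTTC, the core bound by the hypoxic repressor Rox1, were in 9.52% of the members' windows and in 10.5% of all windows. Among the members they were found upstream of *ATP5*, *COX13* and *QCR2* as well as *COX5B*. A match is a description of these letters and not of a bound site.

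The following windows show the longer form in 1 gene of each complex that had it, and then the *COX5A* and *COX5B* matches, because those genes code for alternative forms of one subunit and their RNA levels went apart. Each is read 5′ to 3′ on the strand of its gene, the capitals mark the match, and none of these windows overlaps an annotated gene.
*RIP1* (ACCAATNA, chrV:106992-107039, plus strand): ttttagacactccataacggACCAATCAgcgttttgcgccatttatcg
*SDH1* (ACCAATNA, chrXI:171420-171467, minus strand): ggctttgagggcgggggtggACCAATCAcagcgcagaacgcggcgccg
*NDI1* (ACCAATNA, chrXIII:30008-30055, minus strand): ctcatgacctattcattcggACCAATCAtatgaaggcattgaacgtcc
*COX8* (ACCAATNA, chrXII:910140-910187, minus strand): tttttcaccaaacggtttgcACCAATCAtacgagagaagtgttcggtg
*ATP17* (ACCAATNA, chrIV:1228361-1228408, plus strand): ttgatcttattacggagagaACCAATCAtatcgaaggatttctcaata
*COX5A* (CCAAT, chrXIV:531535-531574, plus strand): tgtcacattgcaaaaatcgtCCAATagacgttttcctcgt
*COX5B* (CCAAT, chrIX:154955-154999, plus strand): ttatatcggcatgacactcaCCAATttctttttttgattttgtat
*COX5B* (ATTGTTC, chrIX:154978-155024, plus strand): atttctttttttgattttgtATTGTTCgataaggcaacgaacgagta
Of the other holders, some have another letter at the open position, as *ATP3*, *COX13* and *COR1*, or the match on the opposite strand, as *ATP1* and *COX6*. The 2 *COX5B* windows overlap each other.

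Per kilobase of coding sequence, the levels in untreated wild-type cells spanned a wide range. Length here is coding bases alone, without untranslated sequence or an allowance for fragment length. Short genes such as *COX9* (180 bases) and *ATP15* (189 bases) are therefore less comparable with long ones. *ATP2*, a catalytic subunit of the ATP synthase, was highest at 543 ± 16.5 CPM per kilobase (SD, n = 3), and *COX9* and *ATP15* came next at 466 ± 56.6 and 434 ± 77.1. *NDE2*, an external NADH dehydrogenase, was lowest at 0.554 ± 0.496 CPM per kilobase, and *CYC7* and *SDH1* followed at 30.7 ± 13.5 and 32.8 ± 2.80. *NDE1*, the other external NADH dehydrogenase, stood at 229.9 ± 12.4 CPM per kilobase in the same cells. Summed over its genes and not divided by length, complex III had 569 ± 36.9 CPM in tunicamycin-treated *ups1*Δ cells, 607 ± 58.0 in untreated *ups1*Δ cells, 1238 ± 101 in tunicamycin-treated wild-type cells and 861 ± 42.5 in untreated wild-type cells (SD, n = 3 each). The ATP synthase sum was 2341 ± 44.3, 2473 ± 87.1, 2451 ± 250.4 and 2532 ± 68.7 CPM in the same order of groups. Complex III sums did not overlap between treated *ups1*Δ and treated wild-type libraries, whereas ATP synthase means lay closer together than the SD of the treated wild-type libraries.

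The first comparison asked how the respiratory genes stood in untreated cells without Ups1. In *ups1*Δ cells 20 of the 42 genes were lower and 3 were higher than in wild-type cells, by edgeR's quasi-likelihood test with Benjamini-Hochberg adjustment at 0.05. Among the 5692 genes tested, 25.8% were called lower and 26.5% higher, and all 42 members passed the filter on low counts in each comparison. The median log2 fold change of the 42 was -0.30, against 0.021 over all genes tested. The 19 members under 400 coding bases had a median of -0.50 and the 23 longer ones -0.074. For other genes the medians were -0.11 for 408 short and 0.033 for 5094 longer ones, and the part of length was not tested. All 9 complex III genes and 7 of 9 complex IV genes were lower, whereas 3 of 15 ATP synthase genes and none of 4 complex II genes were called lower. The 3 higher genes were *COX5B*, *NDE1* and *NDE2*.

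**Figure D1:**
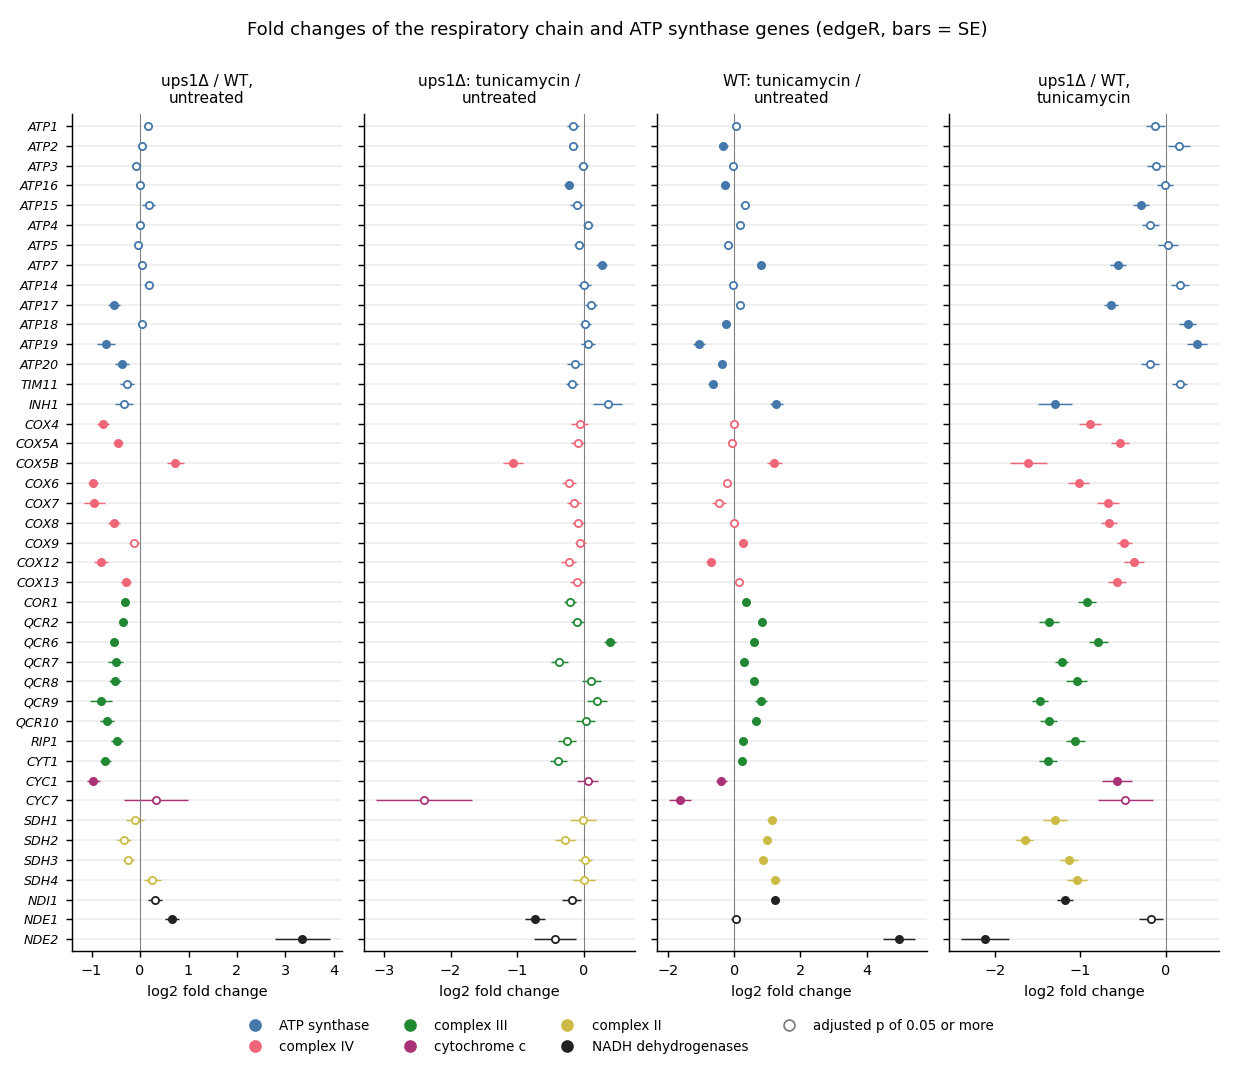
Log2 fold change of each of the 42 genes in the 4 pairwise comparisons (horizontal axis, log2; bars are SE), grouped and coloured by complex, with open points for an adjusted p of 0.05 or more; each panel has its own axis range. Complex III lies wholly below 0 in *ups1*Δ against wild type with and without tunicamycin, and wholly above 0 in wild type with tunicamycin.

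The second comparison gave the response of *ups1*Δ cells to tunicamycin. Treated *ups1*Δ cells had 2 of the 42 genes higher and 3 lower than untreated *ups1*Δ cells, where 15.2% of the 5700 genes tested were called higher and 11.9% lower. *QCR6* and *ATP7* were higher, and *COX5B*, *NDE1* and *ATP16* were lower. The median of the 42 was -0.089. The count fell to 3 called genes without replicate 1 of either *ups1*Δ group and to 2 without replicate 2 or replicate 3 of treated *ups1*Δ cells, and it was 8 with DESeq2 size factors.

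The third comparison gave the same response in wild-type cells. Treated wild-type cells had 19 of the 42 genes higher and 9 lower than untreated wild-type cells, where 39.4% of the 5785 genes tested were called higher and 37.0% lower. The median of the 42 was 0.17, against 0.052 over all genes. All 4 complex II genes and all 9 complex III genes were higher, with medians of 1.06 and 0.58, and *NDI1* and *NDE2* were higher too. Complex IV and the ATP synthase had medians of -0.0057 and -0.035. Scaling between libraries mattered here, and the TMM factors were 1.23 to 1.25 in treated and 0.868 to 0.877 in untreated wild-type libraries. Scaled by library size alone, the median of all genes moved to 0.57, with medians of 1.58 for complex II, 1.10 for complex III, 0.51 for complex IV and 0.48 for the ATP synthase. On that scaling 34 of the 42 genes were called higher and 2 lower.

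Under tunicamycin, the genotypes differed in most of these genes. In treated *ups1*Δ cells 29 of the 42 were lower and 2 higher than in treated wild-type cells, where 33.6% of the 5771 genes tested were called lower and 32.7% higher. The median was -0.65, against -0.026 over all genes. All 9 complex III genes, all 9 complex IV genes and all 4 complex II genes were lower, and the 2 higher genes were *ATP19* and *ATP18*. On library size alone 36 were called lower and none higher, and the median of all genes was -0.32.

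Whether the response to tunicamycin itself differed between the genotypes was tested as an interaction, the log2 response of *ups1*Δ cells minus that of wild-type cells. It was lower for 20 of the 42 genes and higher for 3, where 33.2% of the 5828 genes tested were called lower and 32.9% higher. The called genes included 8 of 9 in complex III, all 4 in complex II and all 3 NADH dehydrogenases, all negative, but 3 of 9 in complex IV and 5 of 15 in the ATP synthase, with both signs. On library size alone it was lower for 32 and higher for 1, and the median of all genes was -0.42. The pairwise comparisons and the interaction share libraries, so their values stand side by side and do not support one another.

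**Figure D2:**
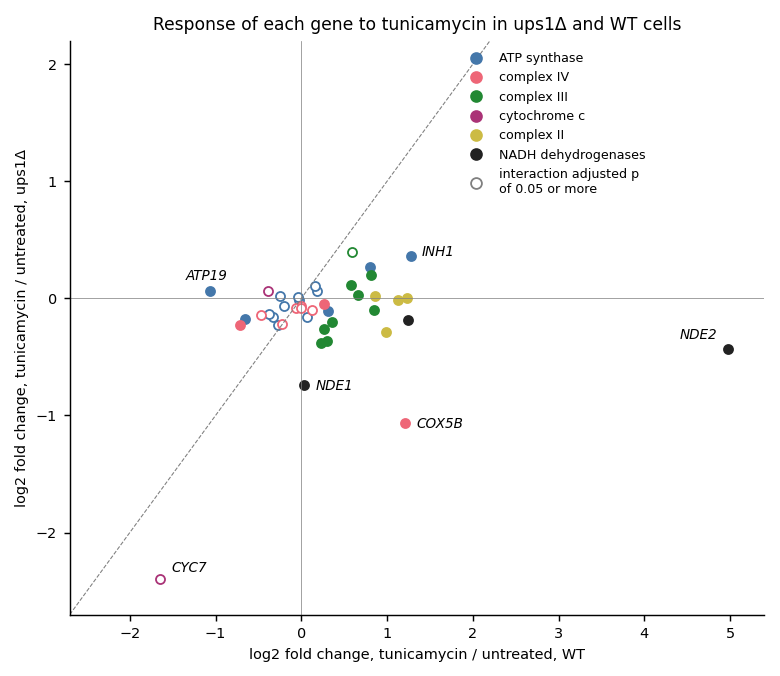
Log2 fold change of each gene with tunicamycin in *ups1*Δ cells (vertical axis) and in wild-type cells (horizontal axis), coloured by complex, with filled points for an interaction adjusted p under 0.05 and a dashed line where both responses are equal. Complex II, complex III, *NDI1* and *NDE2* lie right of the line, between -0.44 and 0.39 in *ups1*Δ and above 0 in wild type, and *COX5B* has -1.06 in *ups1*Δ against 1.21 in wild type.

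The NADH dehydrogenases, which feed electrons into the chain in place of complex I, included the gene with the largest change of the 42, *NDE2*. *NDE2* (YDL085W) had counts of 34, 59 and 29 in tunicamycin-treated *ups1*Δ cells, 36, 28 and 66 in untreated *ups1*Δ cells, 249, 124 and 161 in tunicamycin-treated wild-type cells and 1, 3 and 9 in untreated wild-type cells. The 3 untreated wild-type libraries were lowest and the treated wild-type libraries highest, with no overlap between any of these and the *ups1*Δ libraries. *NDE2* rose in untreated *ups1*Δ cells against wild type (log2 fold change 3.35, SE 0.57, adjusted p = 0.00175). With tunicamycin its log2 fold change in *ups1*Δ cells was -0.44 (SE 0.32, adjusted p = 0.335), whereas it rose in wild-type cells (log2 fold change 4.98, SE 0.48, adjusted p = 1.23e-05). Because untreated wild type had 13 counts in all, the pooled count ratio of treated to untreated wild type was 32.4 (95% exact interval 18.8 to 61.3) and that of untreated *ups1*Δ to wild type 10.2 (5.76 to 19.7), for counting error only. Its interaction was -5.44, the lowest of the 42.

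*NDE1* carried most of the external NADH dehydrogenase RNA in every group. *NDE1* (YMR145C) had 318, 385 and 367 CPM in tunicamycin-treated *ups1*Δ cells, 516, 529.6 and 741 in untreated *ups1*Δ cells, 475, 377 and 347 in tunicamycin-treated wild-type cells and 380.2, 370.3 and 410.3 in untreated wild-type cells. Untreated *ups1*Δ libraries were above all others, and the other groups overlapped. It was higher in untreated *ups1*Δ cells than in wild type (log2 fold change 0.65, SE 0.14, adjusted p = 0.00551) and fell with tunicamycin in *ups1*Δ cells (log2 fold change -0.74, SE 0.15, adjusted p = 0.00978), with 0.036 (SE 0.13, adjusted p = 0.812) in wild-type cells. *NDE2* made up 1.93% ± 0.283 of *NDE1* and *NDE2* counts in treated *ups1*Δ cells, 1.54% ± 0.389 in untreated *ups1*Δ cells, 6.97% ± 1.42 in treated wild-type cells and 0.228% ± 0.193 in untreated wild-type cells (SD, n = 3). *NDI1*, the enzyme that faces the matrix, had 97.1, 109 and 89.0 CPM in tunicamycin-treated *ups1*Δ cells, 95.8, 102 and 139 in untreated *ups1*Δ cells, 221, 237 and 207 in tunicamycin-treated wild-type cells and 94.0, 86.5 and 97.5 in untreated wild-type cells. Treated wild-type libraries were above all others. Its log2 fold change with tunicamycin was -0.18 (SE 0.15, adjusted p = 0.389) in *ups1*Δ cells, and it rose in wild-type cells (log2 fold change 1.24, SE 0.089, adjusted p = 9.59e-07). Under tunicamycin it was lower in *ups1*Δ than in wild-type cells (log2 fold change -1.18).

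Complex II, succinate dehydrogenase, links the citric acid cycle to the chain and is wholly nuclear-encoded, with *SDH1* and *SDH2* for the catalytic subunits and *SDH3* and *SDH4* for the membrane anchor. *SDH2* (YLL041C), the iron-sulphur subunit, had 38.9, 45.6 and 41.3 CPM in tunicamycin-treated *ups1*Δ cells, 44.5, 45.2 and 64.4 in untreated *ups1*Δ cells, 145, 131 and 118 in tunicamycin-treated wild-type cells and 65.0, 63.1 and 68.8 in untreated wild-type cells. *SDH3* (YKL141W) had 93.9, 94.7 and 90.2 CPM in tunicamycin-treated *ups1*Δ cells, 82.9, 86.6 and 107 in untreated *ups1*Δ cells, 234, 194 and 180.5 in tunicamycin-treated wild-type cells and 122, 105 and 106 in untreated wild-type cells. For both genes the treated wild-type libraries were above every other library, and untreated *ups1*Δ and untreated wild type overlapped. In *ups1*Δ cells the log2 fold changes of the 4 genes with tunicamycin were -0.28 to 0.017 and none passed the test. All 4 rose in wild-type cells with tunicamycin, with 0.86 for *SDH3* lowest and 1.24 for *SDH4* highest, and *SDH2* gave 0.99 (SE 0.099, adjusted p = 1.00e-05). Under tunicamycin all 4 were lower in *ups1*Δ than in wild-type cells, with *SDH2* lowest (log2 fold change -1.65, SE 0.10, adjusted p = 1.05e-06).

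In untreated cells no *SDH* gene was called between the genotypes in the pairwise fit, and the median was -0.17. In 1 fit of all 12 libraries *SDH2* was called lower in *ups1*Δ (log2 fold change -0.35, adjusted p = 0.04), and the calls of *SDH1* and *SDH3* depended on 1 library. Replicate 3 of untreated *ups1*Δ cells had 64.4 CPM of *SDH2*, against 44.5 and 45.2 in the other replicates, and it was also the library with 516 CPM of *HAP4*, against 205 and 148. Without it *SDH1*, *SDH2* and *SDH3* were called lower in *ups1*Δ cells, the median was -0.36, and *SDH2* gave log2 fold change -0.53, adjusted p = 3.67e-04. The part of *HAP4* in these values was not tested. The interaction of all 4 genes passed the test with and without that library, with medians of -1.21 with it and -0.97 without it.

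**Figure D3:**
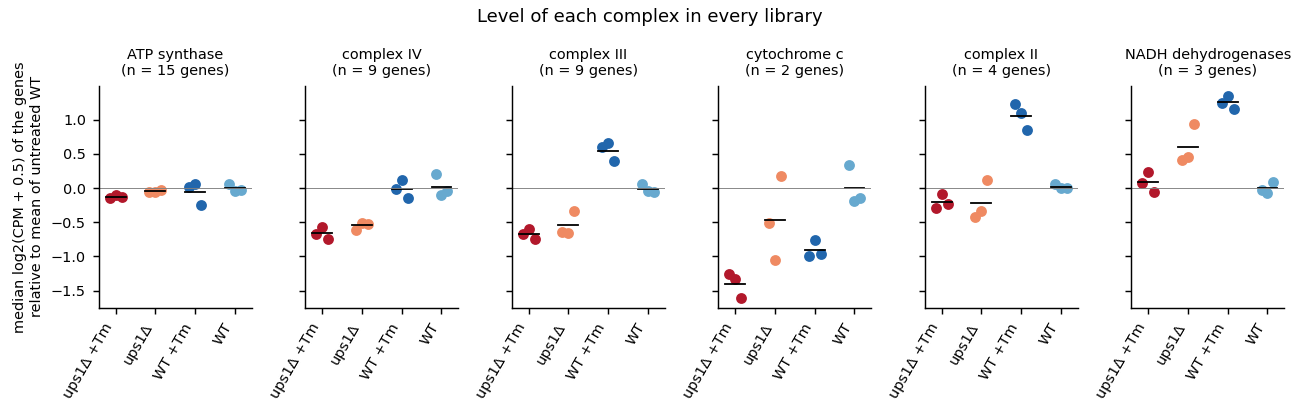
Median over the genes of each complex of log2(CPM + 0.5) relative to the mean of untreated wild type (vertical axis), for every library (points) in the 4 groups, with group means as bars. Complexes II and III stand highest in treated wild type, complexes III and IV stand lower in both *ups1*Δ groups, the ATP synthase stays within 0.26 of untreated wild type in every library, and 1 untreated *ups1*Δ library (replicate 3) lies above its replicates in complexes II and III and the NADH dehydrogenases.

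Complex III, ubiquinol-cytochrome c reductase, had 8 or 9 of its 9 genes called, all in 1 direction, in all comparisons but that of treated with untreated *ups1*Δ cells. *QCR2* (YPR191W), a core subunit, had 90.3, 116 and 98.5 CPM in tunicamycin-treated *ups1*Δ cells, 104, 110.3 and 114 in untreated *ups1*Δ cells, 275, 274 and 231 in tunicamycin-treated wild-type cells and 143, 144 and 144 in untreated wild-type cells. *QCR6* (YFR033C), the acidic hinge subunit, had 76.1, 90.0 and 92.7 CPM in tunicamycin-treated *ups1*Δ cells, 68.3, 66.1 and 63.7 in untreated *ups1*Δ cells, 156, 159.9 and 128 in tunicamycin-treated wild-type cells and 98.9, 99.3 and 93.6 in untreated wild-type cells. In *QCR2* the 4 groups fell in the order treated wild type, untreated wild type and then both *ups1*Δ groups, which overlapped, and no *ups1*Δ library reached a wild-type one in either gene. In untreated cells the 9 genes were lower in *ups1*Δ, with log2 fold changes of -0.80 to -0.31 (median -0.52), with *QCR9* lowest (log2 fold change -0.80, SE 0.23, adjusted p = 0.0208) and *COR1*, the other core subunit, nearest 0 (log2 fold change -0.31, SE 0.079, adjusted p = 0.0112). The *QCR9* call was lost without replicate 1 or 2 of untreated *ups1*Δ, and that of *QCR7* without any 1 of 4 of the 6 libraries.

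With tunicamycin in *ups1*Δ cells *QCR6* rose (log2 fold change 0.39, SE 0.094, adjusted p = 0.0156), a call lost without replicate 2 or 3 of the treated cells, while *QCR7* and *CYT1* gave -0.36 and -0.38 at adjusted p = 0.0626 and 0.0528. In wild-type cells all 9 genes rose with tunicamycin, by 0.22 to 0.85, *QCR2* most (log2 fold change 0.85, SE 0.094, adjusted p = 2.08e-05). The genes nearest 0, *CYT1* (0.22), *RIP1* (0.27) and *QCR7* (0.29), were at adjusted p = 0.0486, 0.0415 and 0.0338, and with DESeq2 size factors, or with DESeq2 itself, 6 of the 9 were called. *CYT1* (YOR065W) had 38.5, 43.1 and 40.1 CPM in tunicamycin-treated *ups1*Δ cells, 55.9, 43.9 and 59.8 in untreated *ups1*Δ cells, 110.4, 112 and 92.8 in tunicamycin-treated wild-type cells and 90.5, 86.8 and 90.0 in untreated wild-type cells. Every wild-type library was above every *ups1*Δ library. *RIP1* and *CYT1* encode the redox subunits, the Rieske iron-sulphur protein and the cytochrome c partner. Under tunicamycin all 9 were lower in *ups1*Δ than in wild-type cells, at -1.48 to -0.79 (median -1.22), and this held in each alternative fit and with each library left out. The interaction was negative for all 9 and passed for all but *QCR6* (log2 difference -0.23, SE 0.14, adjusted p = 0.151), with *QCR2* lowest (log2 difference -0.97, SE 0.14, adjusted p = 2.46e-05). Without the 2 libraries that stood apart, an alternative chosen after seeing the data, 5 of 9 passed, with a median of -0.48 in place of -0.63.

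Cytochrome c carries electrons from complex III to complex IV. *CYC1* (YJR048W), its aerobic gene, had 13.2, 11.4 and 13.8 CPM in tunicamycin-treated *ups1*Δ cells, 12.4, 12.0 and 12.5 in untreated *ups1*Δ cells, 16.9, 22.3 and 17.2 in tunicamycin-treated wild-type cells and 24.8, 26.4 and 22.1 in untreated wild-type cells. Both *ups1*Δ groups lay below every wild-type library. *CYC1* was lower in untreated *ups1*Δ than in wild-type cells (log2 fold change -0.96, SE 0.14, adjusted p = 7.56e-04) and lower in treated *ups1*Δ than in treated wild-type cells (log2 fold change -0.57, SE 0.17, adjusted p = 0.0152), where the adjusted p was 0.0803 without replicate 2 of treated *ups1*Δ. In wild-type cells it was lower with tunicamycin (log2 fold change -0.39, SE 0.16, adjusted p = 0.0437), a call lost when any library but replicate 2 of the treated cells was left out and reversed in sign by scaling on library size alone. The coding sequences of *CYC1* and *CYC7* share 5 words of 31 bases, under 2% of each, so few reads could match both.

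*CYC7* (YEL039C), the form favoured at low oxygen, had counts of 14, 21 and 7 in tunicamycin-treated *ups1*Δ cells, 41, 20 and 115 in untreated *ups1*Δ cells, 19, 20 and 20 in tunicamycin-treated wild-type cells and 71, 30 and 44 in untreated wild-type cells. The untreated *ups1*Δ counts were uneven, with replicate 3 the highest of all libraries. With tunicamycin the log2 fold change of *CYC7* in *ups1*Δ cells was -2.40 (SE 0.72, adjusted p = 0.0525), and the pooled count ratio of treated to untreated was 0.19 (95% exact interval 0.132 to 0.267, counting error only). Without replicate 3 of untreated *ups1*Δ that change passed the test (log2 fold change -1.47, adjusted p = 0.0093), and likewise without replicate 2, with DESeq2 size factors, with DESeq2 and in 1 fit of all 12 libraries. In wild-type cells *CYC7* fell with tunicamycin (log2 fold change -1.64, SE 0.34, adjusted p = 0.00133). Neither cytochrome c gene had an interaction past the threshold with all libraries. Without replicate 2 of treated wild type that of *CYC1* was 0.56 (adjusted p = 0.0251), and without both libraries that stood apart it was 0.57 (adjusted p = 0.0375).

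Complex IV, cytochrome c oxidase, has the *COX4*, *COX6*, *COX7*, *COX8*, *COX9*, *COX12* and *COX13* subunits and a choice between *COX5A* and *COX5B*. *COX5A* (YNL052W) had 43.8, 53.1 and 44.4 CPM in tunicamycin-treated *ups1*Δ cells, 47.9, 50.5 and 52.1 in untreated *ups1*Δ cells, 67.7, 72.6 and 63.1 in tunicamycin-treated wild-type cells and 80.5, 62.2 and 68.2 in untreated wild-type cells. *COX5B* (YIL111W) had 48.6, 46.7 and 36.5 CPM in tunicamycin-treated *ups1*Δ cells, 84.5, 82.0 and 110.1 in untreated *ups1*Δ cells, 154, 92.6 and 152 in tunicamycin-treated wild-type cells and 66.3, 43.6 and 60.8 in untreated wild-type cells. *COX5A* was lower in both *ups1*Δ groups than in any wild-type library, whereas *COX5B* was high in untreated *ups1*Δ and treated wild type and lower in the other groups. In untreated cells *COX5B* was the only complex IV gene higher in *ups1*Δ (log2 fold change 0.73, SE 0.17, adjusted p = 0.00917), while *COX5A* was lower (log2 fold change -0.46, SE 0.11, adjusted p = 0.00817). With tunicamycin *COX5B* fell in *ups1*Δ cells (log2 fold change -1.06, SE 0.15, adjusted p = 0.00146) and rose in wild-type cells (log2 fold change 1.21, SE 0.23, adjusted p = 0.00165), and the interaction was -2.30 (SE 0.31, adjusted p = 5.10e-05). *COX5A* had log2 fold changes with tunicamycin of -0.081 in *ups1*Δ and -0.063 in wild type, and neither passed the test.

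*COX5B* thus made up 48.2% ± 3.92 of the *COX5A* and *COX5B* counts in treated *ups1*Δ cells, 64.5% ± 3.05 in untreated *ups1*Δ cells, 65.4% ± 8.11 in treated wild-type cells and 44.5% ± 3.00 in untreated wild-type cells (SD, n = 3). Among the treated wild-type libraries replicate 2 was lowest in *COX5B*, at 92.6 CPM. Without it and replicate 3 of untreated *ups1*Δ, the interaction of *COX5B* was -2.35 (adjusted p = 1.54e-07).

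**Figure D4:**
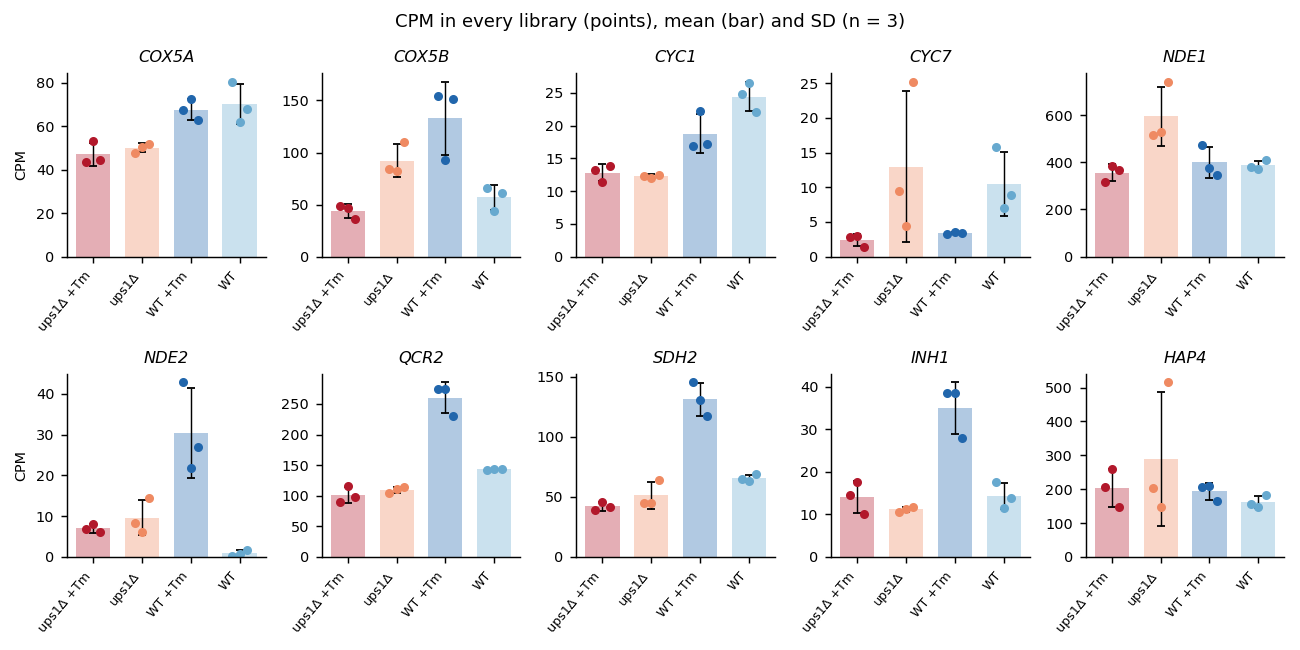
CPM (vertical axis, from 0) in every library (points) with the group mean (bar) and SD (n = 3) for *COX5A*, *COX5B*, *CYC1*, *CYC7*, *NDE1*, *NDE2*, *QCR2*, *SDH2*, *INH1* and the regulator *HAP4*, with groups in the order treated *ups1*Δ, untreated *ups1*Δ, treated wild type, untreated wild type. *QCR2*, *SDH2*, *INH1* and *NDE2* stand highest in treated wild type, *CYC1* and *COX5A* stand lower in both *ups1*Δ groups, and *HAP4* has 1 high library in untreated *ups1*Δ.

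Most other complex IV genes were lower in *ups1*Δ cells with and without tunicamycin. *COX6* (YHR051W) had 29.9, 30.4 and 32.8 CPM in tunicamycin-treated *ups1*Δ cells, 39.2, 33.9 and 35.5 in untreated *ups1*Δ cells, 67.5, 67.8 and 51.8 in tunicamycin-treated wild-type cells and 77.4, 69.4 and 70.4 in untreated wild-type cells. No *ups1*Δ library reached a wild-type one. In untreated cells the largest differences were *COX6* (log2 fold change -0.97, SE 0.096, adjusted p = 1.17e-04), *COX7* (log2 fold change -0.94, SE 0.21, adjusted p = 0.00664), *COX12* (log2 fold change -0.81, SE 0.14, adjusted p = 0.00179) and *COX4* (log2 fold change -0.77, SE 0.13, adjusted p = 0.00144), and *COX9* at -0.12 was not called. The *COX7* call was lost without replicate 3 of untreated *ups1*Δ (adjusted p = 0.066), and that of *COX13* with DESeq2 and without any 1 of 5 libraries. Without replicate 1 of untreated wild type the complex IV median was -0.38, against -0.53 with it, and 6 genes were called lower. That library had higher values of short genes in general, since 442 other genes under 400 coding bases had a median of 0.16 above its group on the log2 scale and the 19 members under 400 bases a median of 0.26, and the part of this in the result was not tested. Under tunicamycin all 9 complex IV genes were lower in *ups1*Δ than in wild-type cells, from -1.61 for *COX5B* to -0.38 for *COX12*.

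*COX12*, a subunit on the intermembrane space side, was the complex IV gene with the highest interaction. *COX12* (YLR038C) had 27.9, 32.9 and 28.3 CPM in tunicamycin-treated *ups1*Δ cells, 36.4, 31.8 and 37.0 in untreated *ups1*Δ cells, 36.5, 43.0 and 35.9 in tunicamycin-treated wild-type cells and 75.6, 59.2 and 53.5 in untreated wild-type cells. Untreated wild-type libraries were above all others. With tunicamycin its log2 fold change was -0.23 (SE 0.12, adjusted p = 0.173) in *ups1*Δ cells, and it fell in wild-type cells (log2 fold change -0.72, SE 0.14, adjusted p = 8.98e-04), a call lost on library size alone (adjusted p = 0.205). The interaction of 0.46 (SE 0.19, adjusted p = 0.0451) lost its call without any 1 of 6 of the 12 libraries, with a minimum of 10 counts and on library size alone. *COX9* rose in wild-type cells (log2 fold change 0.26, SE 0.11, adjusted p = 0.0456) and its interaction was -0.34 (SE 0.14, adjusted p = 0.0405), and both calls were lost with DESeq2 size factors, with DESeq2 and without several single libraries. Of the other complex IV genes, none had a called response in the pairwise fits with TMM scaling. *COX7* was called lower in wild-type cells with tunicamycin by DESeq2 (-0.50, adjusted p = 0.0391), in 1 fit of all 12 libraries and without replicate 2 of either wild-type group, and *COX6* without replicate 2 of treated wild type.

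Of the 15 ATP synthase genes, 3 were called between untreated genotypes, 2 in *ups1*Δ cells with tunicamycin, 8 in wild-type cells with tunicamycin, 6 between treated genotypes and 5 for the interaction. Over all genes tested, the shares called higher were 26.5%, 15.2%, 39.4%, 32.7% and 32.9% in that order. The shares called lower were 25.8%, 11.9%, 37.0%, 33.6% and 33.2%. *ATP1*, *ATP3*, *ATP4*, *ATP5* and *ATP14* were not called in any comparison with TMM scaling and all libraries in the fit of that comparison. Each of them was called in at least 1 comparison on library size alone, and *ATP4* also in wild-type cells with tunicamycin in 1 fit of all 12 libraries. The 5 genes of the F1 head and central stalk, *ATP1*, *ATP2*, *ATP3*, *ATP15* and *ATP16*, lay at -0.074 to 0.18 in untreated *ups1*Δ against wild type, and none passed the test. *ATP4*, *ATP5*, *ATP7*, *ATP14* and *ATP18* of the peripheral stalk and membrane part were within -0.051 to 0.18 in the same comparison, likewise uncalled. The genes called lower in *ups1*Δ were *ATP17* (log2 fold change -0.53, SE 0.12, adjusted p = 0.00653), *ATP19* (log2 fold change -0.70, SE 0.18, adjusted p = 0.0126) and *ATP20* (log2 fold change -0.37, SE 0.14, adjusted p = 0.0492), and *ATP20* lost its call without any 1 of 4 of the 6 libraries and with DESeq2, and *ATP19* without replicate 3 of untreated *ups1*Δ (adjusted p = 0.0802). *ATP17* was also lower in *ups1*Δ cells under tunicamycin (log2 fold change -0.64, SE 0.083, adjusted p = 8.39e-05), as was *ATP15* (-0.29, adjusted p = 0.0212), a call lost with DESeq2 and without any 1 of 3 libraries.

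*INH1*, the inhibitor that blocks ATP hydrolysis by the F1 head, was 1 of 2 ATP synthase genes called higher in wild-type cells with tunicamycin, beside *ATP7*. *INH1* (YDL181W) had 14.7, 17.6 and 10.1 CPM in tunicamycin-treated *ups1*Δ cells, 10.5, 11.3 and 11.6 in untreated *ups1*Δ cells, 38.4, 38.6 and 28.0 in tunicamycin-treated wild-type cells and 17.5, 11.6 and 13.8 in untreated wild-type cells. Treated wild-type libraries were above every other library, which overlapped one another. With tunicamycin its log2 fold change was 0.36 (SE 0.22, adjusted p = 0.239) in *ups1*Δ cells, and it rose in wild-type cells (log2 fold change 1.28, SE 0.19, adjusted p = 1.54e-04). It was lower in treated *ups1*Δ than in treated wild-type cells (log2 fold change -1.30, SE 0.20, adjusted p = 3.13e-04), with an interaction of -0.94 (adjusted p = 0.0134). *ATP7* (YKL016C), a peripheral stalk subunit, had 155, 169 and 169 CPM in tunicamycin-treated *ups1*Δ cells, 133, 129 and 148 in untreated *ups1*Δ cells, 249, 255 and 216 in tunicamycin-treated wild-type cells and 145, 130.4 and 134 in untreated wild-type cells. Treated wild-type libraries were again highest. *ATP7* rose with tunicamycin in *ups1*Δ cells (log2 fold change 0.27, SE 0.079, adjusted p = 0.0334) and by more in wild-type cells (log2 fold change 0.80, SE 0.094, adjusted p = 2.90e-05), and its interaction was -0.56 (SE 0.12, adjusted p = 9.36e-04). The *ups1*Δ call was lost without any 1 of 5 of the 6 libraries and with DESeq2.

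*ATP19*, *ATP20* and *TIM11* encode small subunits linked to dimer formation, and all 3 fell in wild-type cells with tunicamycin. *ATP19* (YOL077W-A) had 39.1, 38.3 and 45.6 CPM in tunicamycin-treated *ups1*Δ cells, 40.3, 38.9 and 39.0 in untreated *ups1*Δ cells, 35.1, 30.3 and 29.2 in tunicamycin-treated wild-type cells and 87.1, 53.1 and 56.5 in untreated wild-type cells. *TIM11* (YDR322C-A), subunit e of the enzyme, had 51.6, 55.02 and 54.9 CPM in tunicamycin-treated *ups1*Δ cells, 63.0, 57.4 and 62.6 in untreated *ups1*Δ cells, 46.3, 49.97 and 47.1 in tunicamycin-treated wild-type cells and 93.3, 63.1 and 68.2 in untreated wild-type cells. For both genes untreated wild-type libraries were highest, replicate 1 above all, and for *ATP19* treated wild-type libraries were lowest. With tunicamycin *ATP19* gave 0.06 (SE 0.10, adjusted p = 0.692) in *ups1*Δ cells. In wild-type cells *ATP19* fell (log2 fold change -1.06, SE 0.19, adjusted p = 5.69e-04) as did *TIM11* (log2 fold change -0.66, SE 0.14, adjusted p = 0.00173), *ATP20* (-0.38), *ATP2* (-0.33), *ATP16* (-0.27) and *ATP18* (-0.24). Beside these, 428 other genes under 400 coding bases had a median of -0.36 in this comparison, against 0.08 for 5149 longer ones. *ATP19*, *TIM11*, *ATP20*, *ATP18* and *COX12* have 207, 291, 348, 180 and 252 coding bases, and the part of length in their values was not tested. Without single libraries *ATP2* and *ATP18* each lost the call in 5 of 6 fits, *ATP16* in 3 and *ATP20* in 1, and *ATP18* also with DESeq2. Scaled by library size alone, *TIM11* lost its call (-0.14, adjusted p = 0.377) and *ATP2*, *ATP16*, *ATP18* and *ATP20* changed sign, with 11 ATP synthase genes called higher and 1 lower in wild-type cells.

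The interaction of *ATP19* (log2 difference 1.10, SE 0.23, adjusted p = 7.83e-04) was the highest of the 42 and kept its call in every alternative run. *TIM11* had an interaction of 0.46 (adjusted p = 0.0314), a call lost without any 1 of 6 libraries. Beside these, 442 other genes under 400 coding bases had a median interaction of 0.25, against -0.058 for 5168 longer ones. The part of length in the interactions was not tested. Under tunicamycin *ATP19* was higher in *ups1*Δ than in wild-type cells (log2 fold change 0.36, SE 0.12, adjusted p = 0.0202), as was *ATP18* (log2 fold change 0.25, SE 0.099, adjusted p = 0.0451). *ATP18* (YML081C-A), a small membrane subunit, had 70.9, 74.5 and 68.1 CPM in tunicamycin-treated *ups1*Δ cells, 66.0, 72.4 and 72.9 in untreated *ups1*Δ cells, 66.1, 56.8 and 54.8 in tunicamycin-treated wild-type cells and 67.2, 68.7 and 73.0 in untreated wild-type cells. Its treated *ups1*Δ libraries were above the treated wild-type ones. Both calls were lost under several alternatives, the *ATP19* one without replicate 3 of either treated group, the *ATP18* one with DESeq2. On library size alone *ATP18* was at -0.046 and no ATP synthase gene was called higher.

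The HAP regulators were measured as well. *HAP4*, the activation subunit, had 205, 259 and 147 CPM in tunicamycin-treated *ups1*Δ cells, 205, 148 and 516 in untreated *ups1*Δ cells, 207, 209.9 and 166 in tunicamycin-treated wild-type cells and 156, 148 and 182 in untreated wild-type cells. Replicate 3 of untreated *ups1*Δ stood far above all other libraries, and *HAP4* gave 0.87 (SE 0.52, adjusted p = 0.224) in untreated *ups1*Δ against wild type and 0.25 (SE 0.12, adjusted p = 0.0848) in wild-type cells with tunicamycin. In untreated cells the DNA-binding subunits *HAP2*, *HAP3* and *HAP5* were higher in *ups1*Δ than in wild type, by 0.65, 0.71 and 0.84 (log2). Their adjusted p was at most 0.00161, and *HAP1*, a haem-dependent regulator, was higher by 0.27 (adjusted p = 0.0103). Of all genes tested there, 26.5% were called higher and 25.8% lower. None of the 5 was called in *ups1*Δ cells with tunicamycin, where 15.2% of all genes tested were called higher and 11.9% lower. In wild-type cells *HAP1*, *HAP2* and *HAP5* rose by 0.38, 0.64 and 0.61, and *HAP3* gave 0.087. There 39.4% of all genes tested were called higher and 37.0% lower. Under tunicamycin only *HAP3* was called between genotypes, higher in *ups1*Δ (0.44), against 32.7% of all genes higher and 33.6% lower. The interaction was negative and called for *HAP1*, *HAP2* and *HAP5* (-0.40, -0.86 and -0.86), where 33.2% of all genes tested were called lower.

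Many assembly factors were higher in untreated cells without Ups1. Of 25 complex IV assembly and associated factors tested, 15 were higher and 1 lower in *ups1*Δ than in wild-type cells, against 26.5% called higher and 25.8% lower over all genes. The median of these factors was 0.50, whereas the structural genes had a median of -0.53. The largest were *COX23* (1.25), which acts in copper delivery, *PET117* (0.92), *COX20* (0.91), a chaperone of the Cox2 subunit, and *COX14* (0.85), and the lower one was *RCF2* (-0.41). Of 13 ATP synthase factors 7 were higher and none lower, with a median of 0.54, led by *STF1* (1.06), a paralogue of the *INH1* inhibitor. Of 11 complex III factors 4 were higher, a share near that of all genes, among them *CYC3* (1.02), which attaches haem to cytochrome c, and *MZM1* (1.01), and 1 was lower, *CBS1* (-0.72), a translational activator of mitochondrial cytochrome b. Of 4 complex II factors 3 were higher, with *SDH5*, which flavinates Sdh1, at 1.06, *SDH8* at 0.87 and *SDH7* at 0.74.

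With tunicamycin in *ups1*Δ cells 2 complex IV factors rose and 2 fell, 2 ATP synthase factors fell and no complex II factor was called. The shares over all genes there were 15.2% higher and 11.9% lower. In wild-type cells, where 39.4% of all genes were higher and 37.0% lower, these lists went both ways. Complex IV factors had 6 higher and 9 lower of 26, with *COX26* (4.14), a small protein of the respiratory supercomplex, and *COX20* (1.28) highest and *COX17* (-1.19), a copper chaperone, lowest. ATP synthase factors had 5 higher and 5 lower of 13, with *STF1* at 1.98 and *AEP3* at 1.63, against *ATP11* at -0.87. Of the complex II factors 3 of 4 rose, *SDH6* most (1.85). Under tunicamycin 14 of 26 complex IV factors were higher and 4 lower in *ups1*Δ than in wild-type cells. The shares over all genes were 32.7% and 33.6%, and *COX26* gave -4.19 and *COX23* 1.48. *COX26* had counts of 8, 4 and 6 in untreated and 184, 77 and 152 in treated wild-type cells. In treated *ups1*Δ cells it had 6, 13 and 3, so both of its fold changes rest on low counts near the limit of detection.

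Paralogues of the succinate dehydrogenase genes were followed too. *SHH4*, a paralogue of *SDH4*, had 5.02, 5.56 and 6.61 CPM in tunicamycin-treated *ups1*Δ cells, 4.35, 5.87 and 6.57 in untreated *ups1*Δ cells, 27.4, 24.5 and 27.2 in tunicamycin-treated wild-type cells and 5.10, 3.48 and 5.01 in untreated wild-type cells. Treated wild-type libraries were above all others. With tunicamycin its log2 fold change was 0.032 in *ups1*Δ cells, and it rose in wild-type cells (log2 fold change 2.52, SE 0.19, adjusted p = 1.46e-06). *SHH3*, a paralogue of *SDH3*, had 19.5, 8.59 and 9.52 CPM in treated wild-type libraries and 0 counts in the untreated ones, which made it at least 19.1-fold higher than a limit of 3 counts per library. *YJL045W*, a paralogue of *SDH1*, rose by 1.56. All 3 were lower in treated *ups1*Δ than in treated wild-type cells, *SHH4* at a log2 fold change of -2.22. In that comparison 33.6% of all genes tested were called lower.

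Another list held 6 genes tied to oxygen supply, beside *COX5B* and *CYC7*, namely 5 that oxygen represses and *ROX1*, which encodes a repressor of hypoxic genes and was not called in any comparison. In untreated *ups1*Δ cells *ANB1*, the hypoxic form of translation factor eIF5A, was higher than in wild type (log2 fold change 1.80, SE 0.21, adjusted p = 3.20e-04), *TIR1*, a hypoxic cell wall mannoprotein, was higher by 0.95, and *DAN1*, another such mannoprotein, had 60, 45 and 64 counts, against 0, 0 and 1 in untreated wild type, while *HEM13* of haem synthesis was lower (-0.26). With tunicamycin 4 of the 6 fell in *ups1*Δ cells, where 11.9% of all genes tested were called lower. In wild-type cells, where 37.0% of all genes tested were called lower, 4 of 5 tested fell. Their log2 fold changes were -3.90 for *TIR1*, -3.12 for *AAC3*, -2.04 for *ANB1* and -1.91 for *HEM13*, whereas *COX5B* rose. Under tunicamycin all but *ROX1* were higher in *ups1*Δ than in wild-type cells, where 32.7% of all genes tested were called higher.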

How the data were processed

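Poly(A)-selected RNA was sequenced as stranded libraries from 12 samples of *S. cerevisiae* S288c, and the authors estimated transcript abundance with kallisto on the sacCer3 genome and tested it with DESeq2. The deposited table holds estimated counts per gene as whole numbers, not normalised, and these were used as they stood. The authors' comparison tables, which hold fold changes and p-values, were not used. All 12 count columns matched a sample by name, and 270 of 7110 features had no counts in any library.

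Counts were tested with edgeR 4.0.16 (R 4.3.3, limma 3.58.1) by the quasi-likelihood test with TMM scaling, filterByExpr and robust fits, on the 6 libraries of each pairwise comparison and on all 12 for the interaction, with Benjamini-Hochberg adjustment over all genes tested and a threshold of 0.05. The SE is the log2 fold change divided by the square root of F. CPM (counts scaled to a common library size) used TMM factors over the 12 libraries. Intervals of count ratios are exact, and sequences and lengths come from the R64 reference, read with Python 3.11.15. The script was tested on simulated data.

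The alternatives changed the scaling (size factors of DESeq2, or total counts alone), the filter (none, or a minimum of 10 counts in each library), the tool (DESeq2 1.42.0), the design (a replicate block, or 1 fit of all 12 libraries) and the libraries, leaving out each in turn. Replicate numbers did not pair the samples. Full values were given to the genes with the highest and lowest interaction in each complex, to the isoform pairs and to called genes that went against most of their complex, and others by range with a few examples by size. *HAP* regulators were all given, and of each other list at most 4 genes by size in each comparison. The members and lists were chosen with earlier results of these data known.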

Additional observations from a re-analysis of the deposited data

Results flagged for a closer look

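The response to tunicamycin differed between *ups1*Δ and wild-type cells by the test of the interaction for 23 of the 42 genes, and each value here is the log2 response of *ups1*Δ cells minus that of wild-type cells. No other kind of flag was raised. No rule for single outlying values was applied within groups of 3 libraries, although the 2 libraries that stood apart were named above.

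For electron entry the differences were -1.45 for *NDI1*, -0.80 for *NDE1* and -5.44 for *NDE2*. In complex II they were -1.16 for *SDH1*, -1.30 for *SDH2*, -0.87 for *SDH3* and -1.26 for *SDH4*. In complex III they were -0.59 for *COR1*, -0.97 for *QCR2*, -0.69 for *QCR7*, -0.49 for *QCR8*, -0.64 for *QCR9*, -0.66 for *QCR10*, -0.55 for *RIP1* and -0.63 for *CYT1*. Complex IV had -2.30 for *COX5B*, -0.34 for *COX9* and 0.46 for *COX12*. The ATP synthase had -0.56 for *ATP7*, -0.44 for *ATP15*, 1.10 for *ATP19*, 0.46 for *TIM11* and -0.94 for *INH1*. The *ATP15* call was lost with DESeq2 and without any 1 of 8 of the 12 libraries. Only *ATP19*, *TIM11* and *COX12* among these had a response that was higher in *ups1*Δ than in wild-type cells. They are short genes, with 207, 291 and 252 coding bases. The median interaction of 442 other genes under 400 coding bases was 0.25, against -0.058 for 5168 longer ones. The part of length in these values was not tested.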

How the results depend on the processing

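Scaling moved the medians of all comparisons with tunicamycin by more than their spread between replicates. On library size alone the median of the members was 0.016 in *ups1*Δ with tunicamycin, 0.69 in wild type with tunicamycin, -0.95 between treated genotypes and -0.68 for the interaction, and the median of all genes was 0.11, 0.57, -0.32 and -0.42 in these comparisons. The share of called genes that were lower was 22.5%, 25.9%, 70.6% and 70.6% on that scaling, against 44.0%, 48.4%, 50.7% and 50.2% with TMM. In untreated cells it was 41.7%, against 49.4%.

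Signs that turned did so on that scaling. In wild type with tunicamycin these were *ATP2* (0.19), *ATP3* (0.49), *ATP16* (0.25), *ATP5* (0.32), *ATP14* (0.48), *ATP18* (0.27), *ATP20* (0.14), *COX4* (0.51), *COX5A* (0.46), *COX6* (0.29), *COX8* (0.51) and *CYC1* (0.13). Between treated genotypes they were *ATP5* (-0.28) and *ATP18* (-0.046), and for the interaction *ATP16* (-0.37) and *ATP14* (-0.37).

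With a single library left out, the members' median ran from -0.39 to -0.21 in untreated *ups1*Δ against wild type, -0.15 to -0.049 in *ups1*Δ with tunicamycin, 0.11 to 0.21 in wild type with tunicamycin, -0.69 to -0.59 between treated genotypes and -0.36 to -0.21 for the interaction. The number of called members ran from 19 to 24, 2 to 7, 20 to 27, 27 to 30 and 18 to 21 in the same comparisons. Without both libraries that stood apart, chosen after seeing the data, the interaction median was -0.17. In *ups1*Δ with tunicamycin 8 members were called with DESeq2 size factors. The replicate numbers did not pair the samples (correlations of same-numbered libraries -0.24 to 0.11), and with the replicate block 25, 3, 25, 30 and 22 members were called. Over single genes, 2727 results kept direction and call, 171 lost the call, 62 gained one and 16 turned. Counts of 1 to 9 for *NDE2* in untreated wild type limit its fold changes.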

Other observations

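Genes for other electron donors of the chain were followed beside the NADH dehydrogenases. *CYB2*, the L-lactate dehydrogenase of the intermembrane space, was higher in untreated *ups1*Δ than in wild-type cells (log2 fold change 1.71, SE 0.21, adjusted p = 4.15e-04) and rose in wild-type cells with tunicamycin (log2 fold change 2.79, SE 0.17, adjusted p = 2.96e-07). *DLD1*, the D-lactate dehydrogenase, was higher in untreated *ups1*Δ (log2 fold change 0.66, SE 0.14, adjusted p = 0.00555). It was also called higher in wild-type cells with tunicamycin (log2 fold change 0.85). *GUT2*, the glycerol-3-phosphate dehydrogenase, rose in wild-type cells with tunicamycin (log2 fold change 1.75, SE 0.16, adjusted p = 8.01e-06). None of these 3 genes was called in *ups1*Δ cells with tunicamycin, where 15.2% of all genes tested were called higher and 11.9% lower. The interaction was negative and called for all 3, where 33.2% of all genes tested were called lower. Of 11 genes of ubiquinone synthesis, 5 were higher and none lower in untreated *ups1*Δ, where 26.5% and 25.8% of all genes were, with a median log2 fold change of 0.16, and 5 were higher and 3 lower in wild-type cells with tunicamycin, where 39.4% and 37.0% of all genes were.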
